A study of Mus musculus with 10 samples.

Results

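Elovl6 and 8 further genes of fatty acid synthesis, namely Elovl1, Elovl5, Fasn, Acaca, Acly, Scd1, Scd2 and Srebf1, were followed in mouse lung. They are 9 of the 33347 genes in the count table, all 9 were found by symbol, and all 9 held enough counts to be tested. Elovl6 was chosen by its measured levels in these same libraries, which differ between the 2 transfer groups, so that difference is given below as a description without a test. The other 8 were listed for their place in the pathway, with earlier results of these data already known. Bulk RNA came from lung of wild-type (WT) mice given bleomycin, a drug that injures lung and leads to fibrosis, and the mice also received an injection of bone marrow cells. In 5 samples those cells had high aldehyde dehydrogenase activity (ALDHbr), and in the other 5 they had low activity (ALDHdim). All samples share the genotype, the bleomycin and a transfer of marrow cells, and lung without transferred cells was not analysed here, so a difference is one transfer against the other. The sources used here do not give age, cell dose or time after transfer, nor whether every sample is its own animal. The p-values therefore measure sample-to-sample spread, which may be technical.

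Cells make fatty acids in the cytosol from citrate. ATP citrate lyase (Acly) releases acetyl-CoA, acetyl-CoA carboxylase (Acaca) turns it into malonyl-CoA, and fatty acid synthase (Fasn) joins these units into palmitate. Elovl6 lengthens palmitate to stearate, the stearoyl-CoA desaturases Scd1 and Scd2 place a double bond in these chains, and Srebf1 encodes SREBP-1, the transcription factor that switches on most of these genes. Alveolar type 2 cells use the pathway to make the phospholipids of surfactant, and mice that lack Elovl6 are known to develop more severe lung fibrosis after bleomycin.

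Libraries were made by BRB-seq, in which reads start near the 3' end of the RNA, so levels were not divided by transcript length and are not compared between genes. Levels are CPM, the share of a library's counts scaled to a common total over tested genes. Library totals ranged from 588063 to 1522283 counts after ALDHbr transfer and from 1181037 to 2002947 counts after ALDHdim transfer. The ALDHbr libraries 3 and 5 stood apart, with 24722 and 25377 genes detected against 17044 to 21209 in the other 8 libraries, and several results below are also given without both. Lung was recognisable in every library: the 12 alveolar type 2 markers were all tested, and their summed level was 28710 to 55690 CPM after ALDHbr transfer and 25650 to 46260 CPM after ALDHdim transfer. In whole tissue, fewer cells of a type and less RNA per cell cannot be told apart.

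Elovl6 had a lower level in each ALDHbr recipient than in any ALDHdim recipient. It was at 8.23, 5.87, 5.17, 10.2 and 8.33 CPM in ALDHbr libraries 1 to 5, against 13.5, 16.7, 12.8, 21.9 and 13.7 CPM in ALDHdim libraries 1 to 5. The highest ALDHbr value, in library 4, lay under the lowest ALDHdim value, in library 3. The means were 7.57 ± 2.04 CPM after ALDHbr transfer and 15.7 ± 3.76 CPM after ALDHdim transfer (SD, n = 5 each). The log2 fold change, ALDHbr over ALDHdim, was −0.97 (SE 0.27), which is 0.511-fold. This value chose the gene, and nothing is concluded from it here. Among the 10844 genes tested, 31 (0.286%) had every ALDHbr library below every ALDHdim library, and 27 (0.249%) had the reverse. Of the 9 members, Elovl6 was the 1 gene whose groups did not overlap.

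The difference rests on few reads. Elovl6 had 13, 3, 4, 13 and 10 counts in ALDHbr libraries 1 to 5, against 19, 33, 15, 26 and 25 counts in ALDHdim libraries 1 to 5. In the shallowest library, ALDHbr 2, the 95% Poisson interval of its 3 counts ran from 1.21 to 17.2 CPM, which takes in 4 of the 5 ALDHdim levels. In ALDHdim 4, the highest, the interval of 26 counts ran from 14.3 to 32.1 CPM. These intervals cover counting error only. The log2 fold change was −0.86 without both ALDHbr 3 and ALDHbr 5, and it lay between −1.10 and −0.84 when any 1 library was omitted. Because Elovl6 was chosen for this difference, the range describes the value and is no test of it.

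**Figure D1:**
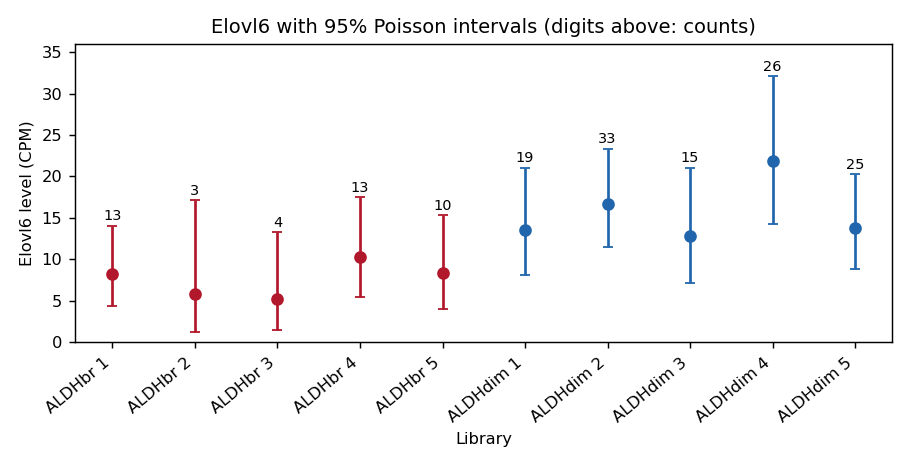
Elovl6 level in CPM (y axis) in each of the 10 libraries (x axis), ALDHbr in red and ALDHdim in blue. Points are levels, bars are 95% Poisson intervals for counting error, and digits give the counts. The 5 ALDHbr points, at 5.17 to 10.2 CPM, lie under the 5 ALDHdim points, at 12.8 to 21.9 CPM, while the bars of neighbouring libraries overlap.

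Elovl6 lies on chromosome 3 from 129532355 to 129638495 on the plus strand (GENCODE vM21, GRCm38), and counts are given per gene. The 250 bases before its annotated start (RefSeq, GRCm38.p6, chr3:129532136-129532385, plus strand) are shown because Elovl6 is the gene of interest and SREBP-1 is known to act on promoters of this pathway. The RefSeq start lies downstream of the GENCODE start, so the window ends inside the GENCODE span. The window was searched on both strands for the sterol regulatory element TCACNCCAC, the E-box CACGTG, the CCAAT box CCAAT and the GC box GGGCGG, and held none of them. Among 32851 RefSeq promoter windows of the same length, 1.05% held the sterol element, 6.02% the E-box, 33.8% the CCAAT box and 32.7% the GC box.
Elovl6: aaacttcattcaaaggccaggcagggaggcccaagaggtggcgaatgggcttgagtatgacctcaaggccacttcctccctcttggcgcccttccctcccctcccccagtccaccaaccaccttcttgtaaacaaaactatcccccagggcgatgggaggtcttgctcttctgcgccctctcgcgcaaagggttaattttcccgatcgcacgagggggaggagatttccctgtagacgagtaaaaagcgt

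The other elongases had levels that overlapped between the groups. Elovl1, which lengthens saturated and monounsaturated very long chains, was at 526.9, 432.3, 517.4, 452.4 and 418.2 CPM in ALDHbr libraries 1 to 5, against 611.9, 420.2, 541.0, 463.1 and 374.1 CPM in ALDHdim libraries 1 to 5. The groups overlapped throughout, and the log2 fold change was −0.04 (SE 0.15), a fold of 0.975 with a 95% interval from 0.782 to 1.22. Elovl5, an elongase of polyunsaturated chains, was at 199.5, 162.3, 143.6, 167.6 and 179.9 CPM in ALDHbr libraries 1 to 5, against 212.3, 185.6, 219.4, 174.3 and 147.8 CPM in ALDHdim libraries 1 to 5. Its lowest value was ALDHbr 3 and its highest ALDHdim 3, with overlap between, and the log2 fold change was −0.13 (SE 0.14; fold interval 0.747 to 1.12). Elovl7 had mean levels of 7.55 ± 3.78 CPM after ALDHbr transfer and 11.2 ± 3.66 CPM after ALDHdim transfer, a log2 fold change of −0.61 (SE 0.33) that did not pass (edgeR adjusted p = 0.999). Within the ALDHbr group it was at 14.2 CPM in library 3 and at 4.998 to 6.333 CPM in the other 4. Elovl3, an elongase of brown fat and skin, had 0 counts after ALDHbr transfer and 1 count after ALDHdim transfer. Elovl2, known from liver and testis, had 3 counts after ALDHbr transfer and 1 count after ALDHdim transfer. Elovl4 was also too low to be tested.

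The enzymes that build palmitate had overlapping levels in the 2 groups. Fasn was at 229.3, 138.9, 77.6, 103.8 and 87.5 CPM in ALDHbr libraries 1 to 5, against 186.0, 186.6, 131.0, 122.1 and 95.04 CPM in ALDHdim libraries 1 to 5. ALDHbr 1 was the highest of all 10 and ALDHbr 3 the lowest, a 2.95-fold span. Acly was at 122.9, 78.2, 59.5, 87.3 and 76.6 CPM in ALDHbr libraries 1 to 5, against 112.9, 104.9, 85.1, 101.9 and 85.2 CPM in ALDHdim libraries 1 to 5. Again ALDHbr 1 was the highest and ALDHbr 3 the lowest. The log2 fold changes were −0.17 (SE 0.29; fold interval 0.573 to 1.39) for Fasn and −0.18 (SE 0.17; fold interval 0.689 to 1.13) for Acly. Acaca was at 37.4, 13.7, 29.8, 21.2 and 27.5 CPM in ALDHbr libraries 1 to 5, against 19.9, 35.3, 19.6, 21.1 and 18.7 CPM in ALDHdim libraries 1 to 5. It was the 1 member with a higher estimate after ALDHbr transfer, 0.22 (SE 0.25; fold interval 0.810 to 1.67). That estimate was 0.02 without ALDHbr 1 and 0.45 without ALDHdim 2, the 1 ALDHdim library in which Acaca was high.

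The desaturases had overlapping levels in the groups. Scd1 was at 1067, 850.8, 1423, 1288 and 1233 CPM in ALDHbr libraries 1 to 5, against 1620, 1064, 1557, 1433 and 1217 CPM in ALDHdim libraries 1 to 5. It was lowest at library 2 of both groups. Scd2 was at 534.5, 377.5, 329.9, 460.2 and 390.7 CPM in ALDHbr libraries 1 to 5, against 449.3, 539.3, 463.6, 510.3 and 467.5 CPM in ALDHdim libraries 1 to 5. The ALDHbr libraries 2, 3 and 5 lay under every ALDHdim library. The log2 fold changes were −0.23 (SE 0.17; fold interval 0.664 to 1.09) for Scd1 and −0.21 (SE 0.14; fold interval 0.699 to 1.07) for Scd2. The log2 ratio of Scd1 to Scd2 within a library averaged 1.48 ± 0.43 after ALDHbr transfer and 1.49 ± 0.34 after ALDHdim transfer (SD, n = 5 each), a difference of −0.01 (exact two-sided permutation test over 252 assignments, p = 0.968, where the smallest possible p is 0.0079). The ratio ran from 1.00 in ALDHbr 1 to 2.11 in ALDHbr 3, and from 0.98 in ALDHdim 2 to 1.85 in ALDHdim 1. Scd3 and Scd4, the other mouse desaturases, had 6 and 8 counts over the ALDHbr libraries and 3 and 4 counts over the ALDHdim libraries.

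Srebf1, the regulator, was at 85.5, 52.8, 33.6, 57.4 and 37.5 CPM in ALDHbr libraries 1 to 5, against 66.0, 65.1, 55.3, 53.1 and 52.7 CPM in ALDHdim libraries 1 to 5. The ALDHdim libraries lay close together, and the ALDHbr libraries reached both above and below them. The log2 fold change was −0.10 (SE 0.21; fold interval 0.686 to 1.27). The lowest levels of Srebf1, Fasn and Acly were all in ALDHbr 3 and ALDHbr 5. Without those libraries the log2 fold changes were 0.20 for Srebf1, 0.14 for Fasn and 0.00242 for Acly, in each case turned from a lower to a higher estimate. Without ALDHbr 1 they were −0.37, −0.53 and −0.37.

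**Figure D2:**
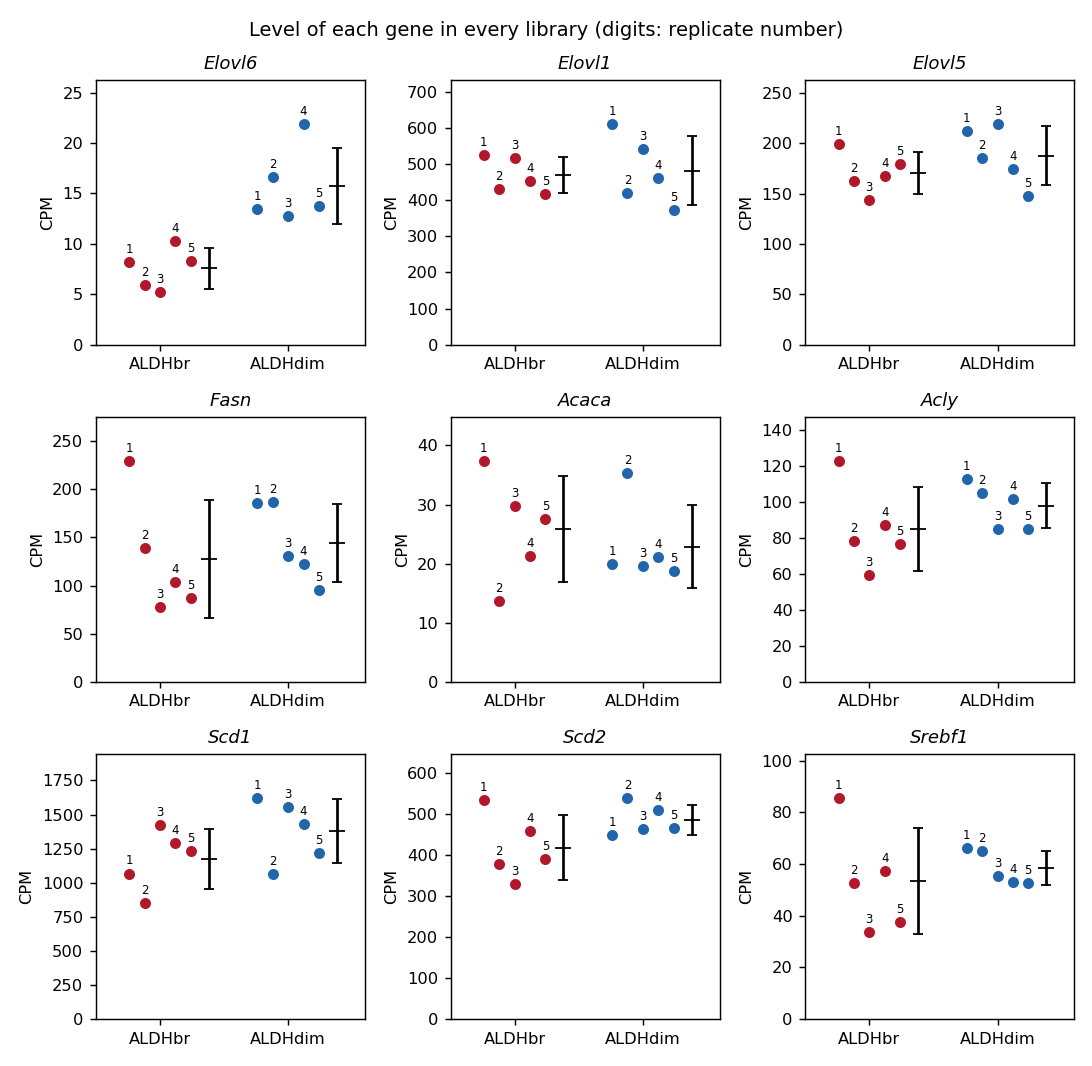
Level in CPM (y axes, from 0) of the 9 genes in every library, with ALDHbr in red on the left and ALDHdim in blue on the right. Each point is a library with its replicate number, and the black bar is the mean ± SD (n = 5). Elovl6 shows no overlap between groups (5.17 to 10.2 against 12.8 to 21.9 CPM), whereas the other 8 genes overlap.

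None of the 8 members other than Elovl6 passed edgeR's quasi-likelihood test at an adjusted p of 0.05 (0 called, adjusted p = 0.999 for each), and 0 of the 8 had an unadjusted p under 0.05. Over all 10844 genes, 0 were called higher and 0 lower (0% in each direction), with 402 at an unadjusted p under 0.05. DESeq2 and limma-voom likewise called 0 of the 8, with 0 at an unadjusted p under 0.05. Without ALDHbr 1, 3 of the 8 had an unadjusted p under 0.05 by edgeR and 0 were called (smallest adjusted p 0.399). The whole table changed as well: 1141 of 11024 tested genes then had an unadjusted p under 0.05. Of the 8 estimates, 7 were below 0, against 48.1% of all tested genes. The median over all 9 members was −0.17, against 0.01 over all tested genes, and it takes in the value for which Elovl6 was chosen. That median was −0.03 without both ALDHbr 3 and ALDHbr 5, where 4 of the 8 were below 0. It was −0.07 without ALDHbr 3, −0.09 without ALDHdim 1 and −0.32 without ALDHbr 1. A p that misses the threshold does not show equal levels: for Fasn, Acaca and Scd1 the interval reaches beyond 1.5-fold.

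**Figure D3:**
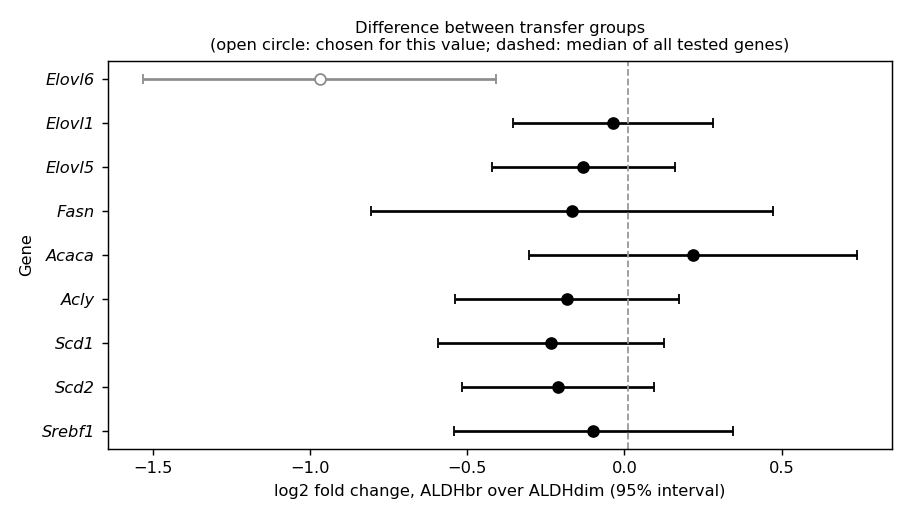
Log2 fold change, ALDHbr over ALDHdim (x axis), of the 9 genes (y axis) with 95% intervals from the fit over all genes. Elovl6 (open grey circle, −0.97) was chosen for this value. The intervals of the other 8 include 0, and the dashed line is the median of all tested genes, 0.01.

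Across the 10 libraries Fasn and Acly varied with Srebf1, and Acly with Scd2. Of 63 relations tested (36 pairs of members and 27 of a member with a marker level), 4 passed a permutation test with 100000 resamples at an adjusted p of 0.05, all between members. Fasn rose with Srebf1 (Pearson r = 0.90, permutation p = 0.00018, adjusted p = 0.00819; Spearman rho 0.88, p = 0.0016, adjusted p = 0.0504). Acly rose with Srebf1 (r = 0.91, permutation p = 0.00026, adjusted p = 0.00819; rho 0.92, p = 0.0006, adjusted p = 0.0378). Both relations kept their direction without the 2 libraries farthest from the median of the first gene (r = 0.80 and 0.75).

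Acly also rose with Scd2 (r = 0.87, permutation p = 0.00077, adjusted p = 0.0162; rho 0.75, p = 0.0175, adjusted p = 0.276; r = 0.71 without the 2 farthest libraries). Fasn rose with Acly (r = 0.86, permutation p = 0.00128, adjusted p = 0.0202; rho 0.79, p = 0.00874, adjusted p = 0.184; r = 0.73 without the 2 farthest libraries). The relation of Scd2 with Srebf1 (r = 0.82, permutation p = 0.00409, adjusted p = 0.0515; rho 0.61, p = 0.0663, adjusted p = 0.454; r = 0.77 without the 2 farthest libraries) did not pass. Nor did that of Fasn with Scd2 (r = 0.66, permutation p = 0.0366, adjusted p = 0.276; rho 0.58, p = 0.0870, adjusted p = 0.498; r = 0.36 without the 2 farthest libraries). The number of relations past the threshold was 1 by Spearman's rho, 2 without ALDHbr 1 and 2 without ALDHbr 3. It was 0 without both ALDHbr 3 and ALDHbr 5, where r was 0.86 for Fasn with Srebf1 and 0.84 for Acly with Srebf1 over 8 libraries (exact permutation p = 0.00372 and 0.00397, adjusted p = 0.0625 for both). It was also 0 with values centred within each group, where the same r were 0.90 and 0.91 (exact permutation within groups, p = 0.00153 and 0.00222, adjusted p = 0.07 for both).

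No relation of Elovl6, Elovl1, Elovl5, Acaca or Scd1 passed the threshold. Scd1 had r = −0.20 with Srebf1 (permutation p = 0.588, adjusted p = 0.927; rho 0.03, p = 0.946, adjusted p = 0.989) and r = −0.01 with Scd2 (permutation p = 0.969, adjusted p = 0.985; rho −0.19, p = 0.608, adjusted p = 0.859). The r of Scd1 with Scd2 was 0.22 without both ALDHbr 3 and ALDHbr 5. Acaca had r = 0.13 with Srebf1 (permutation p = 0.714, adjusted p = 0.954; rho 0.27, p = 0.446, adjusted p = 0.821), and r was −0.71 without ALDHbr 1 and ALDHdim 2, the libraries farthest from its median. The value was 0.80 without both ALDHbr 3 and ALDHbr 5 (exact permutation p = 0.0122, adjusted p = 0.154). In ALDHbr 3 and 5 Srebf1 was at its lowest while Acaca was at 29.8 and 27.5 CPM. For Elovl6 the values were centred within each group, since a correlation over all 10 libraries takes in the group difference for which it was chosen. Its highest r among members was then 0.70 with Scd2 (exact permutation within groups, p = 0.0408, adjusted p = 0.368). It was 0.30 with Srebf1 (exact permutation p = 0.489, adjusted p = 0.860) and 0.12 with Fasn (exact permutation p = 0.766, adjusted p = 0.939). Without centring and without both ALDHbr 3 and ALDHbr 5, r was 0.60 with Scd2, −0.20 with Srebf1 and −0.16 with Fasn, against 0.76, 0.38 and 0.27 over all 10 libraries. At 3 to 33 counts per library, counting error limits what can be seen of Elovl6.

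**Figure D4:**
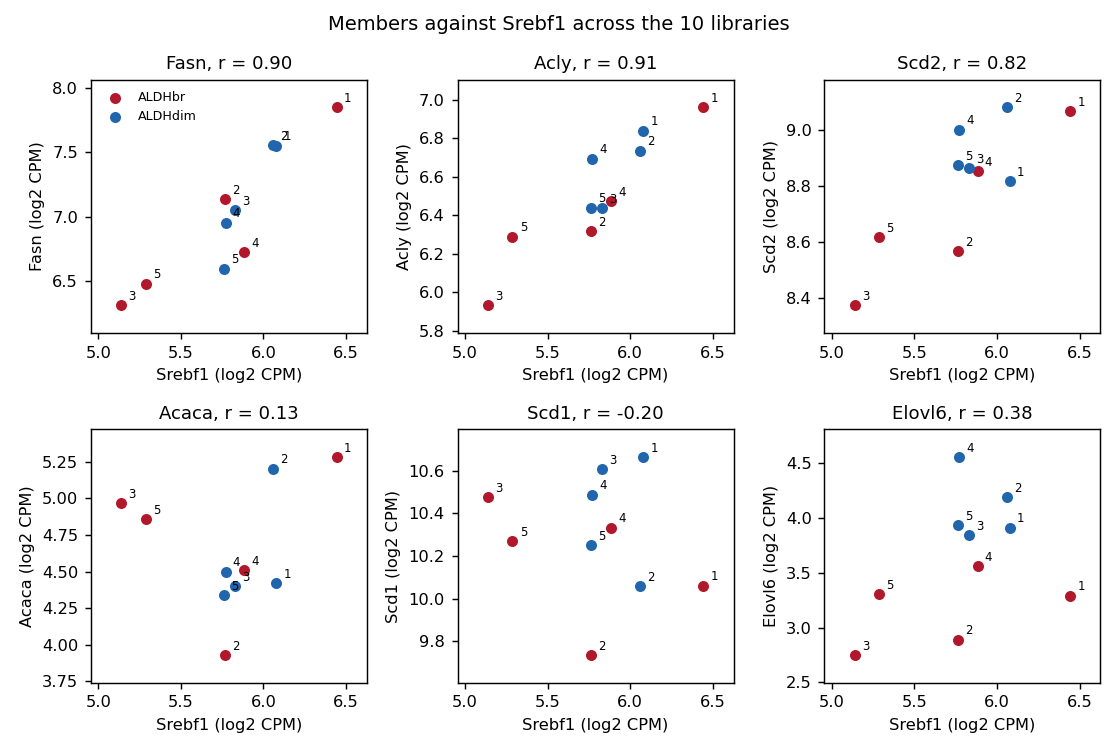
Level of 6 members (y axes, log2 CPM) against Srebf1 (x axes, log2 CPM) in the 10 libraries, ALDHbr in red and ALDHdim in blue, with the replicate number beside each point and Pearson's r in the panel titles. Fasn and Acly follow Srebf1 (r = 0.90 and 0.91), with ALDHbr 3 and 5 at the low end and ALDHbr 1 at the high end. For Acaca, Scd1 and Elovl6 r was 0.13, −0.20 and 0.38, and the value for Elovl6 takes in the group difference for which it was chosen.

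Because Srebf1, Fasn and Acly varied together, the 250 bases before their annotated starts are shown (RefSeq, GRCm38.p6, minus strand). The Fasn window is chr11:120824548-120824797 and the Acly window chr11:100528001-100528250. Srebf1 has 3 annotated starts, and the one printed, chr11:60210472-60210721, was chosen after the search as the only one of the 3 with both a CCAAT box and GC boxes. Capitals mark matches on either strand to the 4 motifs searched in the Elovl6 window.
Fasn: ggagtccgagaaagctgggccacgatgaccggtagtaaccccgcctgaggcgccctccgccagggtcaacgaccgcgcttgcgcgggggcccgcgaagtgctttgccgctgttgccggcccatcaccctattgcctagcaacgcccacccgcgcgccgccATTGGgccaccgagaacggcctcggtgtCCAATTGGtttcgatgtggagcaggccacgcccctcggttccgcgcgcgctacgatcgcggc
Acly: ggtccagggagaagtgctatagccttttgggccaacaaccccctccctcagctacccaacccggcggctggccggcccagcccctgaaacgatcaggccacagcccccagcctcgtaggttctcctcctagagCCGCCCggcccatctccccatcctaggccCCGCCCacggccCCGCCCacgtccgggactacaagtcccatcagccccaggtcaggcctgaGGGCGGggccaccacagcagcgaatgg
Srebf1: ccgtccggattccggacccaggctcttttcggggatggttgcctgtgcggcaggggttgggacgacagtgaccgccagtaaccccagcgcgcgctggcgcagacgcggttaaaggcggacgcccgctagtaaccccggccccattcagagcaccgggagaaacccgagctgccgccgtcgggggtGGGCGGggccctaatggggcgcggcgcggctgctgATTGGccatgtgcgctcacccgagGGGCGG
The Fasn window held 3 CCAAT matches, 2 of them overlapping on opposite strands. It held no GC box. The Acly window held 4 GC boxes and no CCAAT match, and the printed Srebf1 window 1 CCAAT match and 2 GC boxes. None of the 3 windows held the letters of the sterol element or the E-box, which says only that these letters are not in these 250 bases. Of the Srebf1 starts not printed, the first had 1 CCAAT match and no GC box, and the second 2 GC boxes and no CCAAT match. The Elovl5 window held 1 E-box and 2 CCAAT matches. Elovl1, with no relation past the threshold, held 1 CCAAT match and 5 GC boxes at its first annotated start. At its second it held 2 GC boxes. Whether these motifs bear on the shared variation was not tested. Windows before a RefSeq start were found for 7 of the 9 members, all but Scd1 and Scd2. That of Acaca, chr11:84195188-84195437, lies inside the GENCODE span of the gene (84129672 to 84401651). It may therefore miss the promoter at the first GENCODE start.

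The members were set beside the cell types of the sampled tissue. Over all 10 libraries, relations of Elovl6 take in the group difference for which it was chosen. The 27 relations of a member with the summed alveolar type 2, adipocyte or fibrotic matrix markers gave 0 past the threshold. The closest was Scd1 with the fibrotic matrix sum (r = 0.58, permutation p = 0.0822, adjusted p = 0.398; rho 0.27, p = 0.446, adjusted p = 0.821), and it was −0.30 without the libraries numbered 2 of both groups. With values centred within each group, Elovl6 had r = −0.58 with the alveolar type 2 sum (exact permutation within groups, p = 0.107, adjusted p = 0.507), −0.45 with the adipocyte sum (exact permutation p = 0.257, adjusted p = 0.762) and 0.45 with the fibrotic matrix sum (exact permutation p = 0.229, adjusted p = 0.758). Without centring these were −0.36, −0.14 and 0.39. Leaving out the 2 libraries farthest from the median of each sum, also without centring, gave −0.06, −0.64 and 0.65. Both sets take in the group difference for which Elovl6 was chosen. The fibrotic matrix sum ran from 933 to 5107 CPM after ALDHbr transfer and from 1257 to 7486 CPM after ALDHdim transfer, so the groups overlapped in it. It was highest in ALDHdim 4 and ALDHdim 5, at 7331 and 7486 CPM. All 10 of the matrix genes had lower estimates after ALDHbr transfer, against 48.1% of all tested genes. Their median log2 fold change was −0.36, with 0 called. These genes need not vary independently, so the 10 are not separate results. The part of this matrix difference in the level of Elovl6 was not tested.

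Fat makes these enzymes in quantity, and a piece of lung can carry fat. The 10 adipocyte markers were all detected and 4 were tested, with a summed level of 84.97 to 387.3 CPM after ALDHbr transfer and 190.3 to 336.0 CPM after ALDHdim transfer. The sum was led by Cfd, with Adipoq (adiponectin) second. Adipoq averaged 17.0 ± 7.24 CPM after ALDHbr transfer and 23.0 ± 6.86 CPM after ALDHdim transfer. Of the 4 tested markers, 2 had higher and 2 lower estimates after ALDHbr transfer, with log2 fold changes from −0.54 to 0.15 and 0 called. The brown adipocyte sum, of which 3 of 10 genes were tested, ran from 77.62 to 171 CPM after ALDHbr transfer and from 91.86 to 124.6 CPM after ALDHdim transfer. It was highest in ALDHbr 1, the library highest in Fasn, Acly and Srebf1. There the defining marker Ucp1 had 0 counts, and Kcnk3 and Slc36a2 made up 71.6 and 52.6 of the 171 CPM. The part of fat in the members' levels was not tested beyond these values.

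Summed markers of the other cell types overlapped between the groups as well. Alveolar macrophage markers ran from 613.6 to 1535 CPM after ALDHbr transfer and from 1004 to 1202 CPM after ALDHdim transfer, led by Chil3 and Car4. Airway markers ran from 18910 to 56630 CPM after ALDHbr transfer and from 17310 to 42730 CPM after ALDHdim transfer, led by Scgb1a1 and Cyp2f2. Those of fibroblasts (Inmt and Gsn leading) ran from 2313 to 7134 CPM after ALDHbr transfer and from 2709 to 7328 CPM after ALDHdim transfer, and endothelial markers (Ramp2 and Cldn5 leading) from 1383 to 2831 CPM after ALDHbr transfer and from 1287 to 3063 CPM after ALDHdim transfer. The alveolar type 2 sum was led by Sftpc and Sftpa1, and the matrix sum by Spp1 and Col3a1.

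In the wider pathway, 0 genes of any list were called in either direction. Apart from Thrsp, the genes named below are among the 3 of smallest p in their list, and they do not stand for its direction. Of 37 other genes of fatty acid synthesis, elongation and desaturation, 27 were tested, 11 with higher and 16 with lower estimates and a median log2 fold change of −0.03. Cbr4, a subunit of the reductase of mitochondrial fatty acid synthesis, was at 3.881 to 12.03 CPM after ALDHbr transfer and 12.6 to 17.6 CPM after ALDHdim transfer. These ranges do not overlap, as for 31 (0.286%) of all 10844 tested genes in this direction. They rest on few reads, with 19, 6, 3, 15 and 9 counts in ALDHbr libraries 1 to 5. In ALDHdim libraries 1 to 5 the counts were 18, 25, 15, 17 and 32. The log2 fold change of Cbr4 was −0.55 (SE 0.28). Pgd, which yields NADPH in the pentose phosphate pathway, differed by −0.31 (SE 0.17). Thrsp (Spot 14), a lipogenic cofactor, averaged 24.5 ± 14.2 CPM after ALDHbr transfer and 21.6 ± 11.5 CPM after ALDHdim transfer.

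Among 20 genes of SREBP, LXR and ChREBP control, 17 were tested, 12 higher and 5 lower, with a median of 0.05. Srebf2, the paralogue that drives cholesterol synthesis, averaged 56.4 ± 16.01 CPM after ALDHbr transfer and 72.0 ± 9.65 CPM after ALDHdim transfer (log2 fold change −0.32, SE 0.18). Akt2, a kinase of insulin signalling, differed by 0.36 (SE 0.16), and Prkaa2, a catalytic subunit of AMP-activated kinase, which inhibits Acaca protein, by 0.47 (SE 0.27).

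Genes that use fatty acids were counted in the same way. Of 27 tested genes of glycerolipid and phospholipid synthesis, 11 were higher and 16 lower (median −0.07). Lpcat3, which puts polyunsaturated chains into phospholipids, differed by −0.50 (SE 0.25), Etnk1 (ethanolamine kinase) by −0.33 (SE 0.15) and Agpat2 by 0.37 (SE 0.19). Of 25 tested oxidation genes, 6 were higher and 19 lower (median −0.11). Acadl, a dehydrogenase of long chains, was among the lower, at −0.25 (SE 0.13). Acads, its short-chain relative, at 0.47 (SE 0.25), and Etfb of electron transfer, at 0.23 (SE 0.13), were among the higher. Of 15 tested uptake genes, 6 were higher and 9 lower (median −0.06). Fabp5, a fatty acid binding protein, differed by 0.21 (SE 0.13), lipoprotein lipase (Lpl) by −0.39 (SE 0.25) and its endothelial anchor Gpihbp1 by 0.27 (SE 0.20). Each of these named genes had an edgeR adjusted p of 0.999. Without both ALDHbr 3 and ALDHbr 5 the median was above 0 for the other genes of synthesis, elongation and desaturation (0.02), for glycerolipid synthesis (0.01) and for uptake (0.10).

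**Figure D5:**
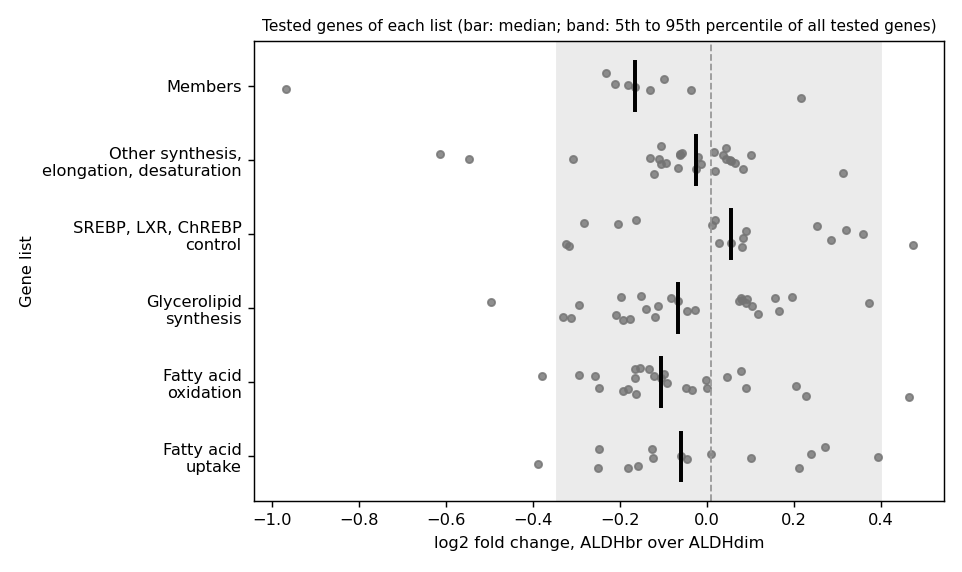
Log2 fold change, ALDHbr over ALDHdim (x axis), of the tested genes of 6 lists (y axis), with each gene as a point and the list median as a black bar. The grey band spans the 5th to 95th percentile of all tested genes (−0.344 to 0.402). The 6 medians lie between −0.17 and 0.05. Elovl6, at −0.97, is the point at the far left, and the members' median takes in this value, for which Elovl6 was chosen.

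The genes whose levels followed Elovl6 most closely, by Pearson's r of log2 CPM over 10 libraries after centring within each group, were Uso1 (r = 0.98), a vesicle tether of the Golgi, Lmo4 (0.92), a LIM-domain transcription cofactor, Eml4 (0.91), a microtubule-associated protein, Ccnk (0.91), a cyclin, and Myo7a (0.91), an unconventional myosin. They were the highest of 10416 genes and are named as a description. Their own levels overlapped between the groups. Uso1 averaged 83.0 ± 8.41 CPM after ALDHbr transfer and 77.1 ± 8.204 CPM after ALDHdim transfer, a log2 fold change of 0.12 (SE 0.13), and without centring its r was 0.16. Of the members, Scd2 stood nearest, at rank 241 (r = 0.70), Acly next at rank 1093 (0.52), and Elovl1 farthest at rank 7563 (−0.25).

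Position and sequence bear on a few of these counts. Fasn (120805846 to 120824547), Acaca (84129672 to 84401651), Acly (100476353 to 100528000) and Srebf1 (60199089 to 60222581) all lie on chromosome 11. Scd2 (44293674 to 44306864) and Scd1 (44394455 to 44407879) lie near each other on chromosome 19, Elovl1 (118428093 to 118432953) lies on chromosome 4 and Elovl5 (77917364 to 77984519) on chromosome 9. The 3' end of Srebf1 lies within Rai1 and that of Elovl1 within Cdc20, both on the opposite strand. Since the sources used here do not say whether counting used strand, reads of these pairs may not be told apart; Rai1 held 241 counts against 752 of Srebf1 over the 10 libraries, and Cdc20 held 146 against 6092 of Elovl1. No 81-nt stretch in the last 500 nt of Scd1 or Scd2 transcripts occurred in a transcript of another gene. For Acaca 22.0% of such stretches also occurred in Gm5182 and for Elovl6 3.75% in Gm11295, and both of those genes held 0 counts.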

How the data were processed

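The 9 genes and all gene lists were chosen with earlier results of these data known. The deposited table holds counts, raw whole numbers per gene that the authors did not normalize, for 10 lung libraries. Per the labels' protocols, libraries were made by BRB-seq with a 10 nt molecular identifier, a 9 nt barcode and an 81 nt RNA read. The builds GRCm38 and GRCh38 and the tools featureCounts 2.0.1, HISAT2 2.2.1, UMI-tools, DESeq2 and Trim Galore 0.6.7 stand, without roles, in the submitters' processing notes. The sources used here do not say whether identifiers were collapsed or strand was used. Without collapse, PCR copies add counts without adding molecules.

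Genes were kept by edgeR's filterByExpr (minimum count 10), which left 10844 genes with 97.3% of counts. After TMM scaling, edgeR 4.0.16 (glmQLFit, glmQLFTest; R 4.3.3) gave the tests, with Benjamini-Hochberg adjustment over all of them at 0.05. The test was run on simulated data first. SE is the log2 fold change over the root of F. Correlations used log2 CPM (prior count 2), and marker sums and the Scd1 to Scd2 ratio log2 of CPM + 1. The smallest chi-square per degree of freedom between 2 libraries was 2.4, so no library's counts were a copy of another's. Whether 2 libraries came from the same RNA or animal cannot be told from this value. All 33347 identifiers were found in GENCODE vM21 on the same chromosome. Other genes are named by rule: the 3 of smallest p of each pathway list, the 2 most abundant of each marker list and the 5 most like Elovl6, leaving out predicted names. Elongases and desaturases below the filter, Thrsp and Ucp1 were named after their values were seen. Alternatives included DESeq2 1.42.0, limma 3.58.1 and other scalings and filters. Plots used matplotlib 3.10.9.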

Additional observations from a re-analysis of the deposited data

Results flagged for a closer look

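Of 108 sets of 5 values (levels of named genes, marker sums and the Scd1 to Scd2 ratio within a group), 7 held a value separated from the next by over 0.71 of the set's whole range. Chance flags about 1 in 20, or 5.4 sets. Acaca was at 35.31 CPM in ALDHdim 2, while ALDHdim 1, 3, 4 and 5 lay at 18.68 to 21.05 CPM. Elovl7 was at 14.23 CPM in ALDHbr 3, while ALDHbr 1, 2, 4 and 5 lay at 4.998 to 6.333 CPM. The brown adipocyte sum was 171 CPM in ALDHbr 1, against 77.62 to 103.7 CPM. ALDHbr 2 had Gpihbp1 at 301.2 CPM, against 174.1 to 208.3 CPM, Scgb1a1 at 44490 CPM, against 15250 to 23270 CPM, and an airway marker sum of 56630 CPM, against 18910 to 29590 CPM. Inmt was at 3477 CPM in ALDHdim 2, against 693.8 to 1418 CPM.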

How the results depend on the processing

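No alternative called a member. Over all genes 185 of 33347 were called when low counts were not filtered out, and 0 under each other alternative. Over all 10 libraries the log2 fold change of Elovl6, the value that chose the gene, ran from −1.02 without the filter to −0.85 with limma-voom. Without ALDHbr 3 and ALDHbr 5 the medians of glycerolipid synthesis (0.0127), uptake (0.10) and the other synthesis genes (0.0208) were above 0, and Fasn, Acly and Srebf1 differed by 0.14, 0.00242 and 0.20. Leaving out each library in turn, Elovl1 ranged from −0.11 to 0.0623 (above 0 without ALDHdim 1, ALDHdim 3 or ALDHbr 5), Srebf1 from −0.37 to 0.0221 (above 0 without ALDHbr 3 or ALDHbr 5) and the Scd1 to Scd2 ratio from −0.16 to 0.12. The median of the other synthesis genes was above 0 without ALDHbr 4 (0.01) or ALDHbr 5 (0.04), that of uptake without ALDHbr 5 (0.03) and that of glycerolipid synthesis without ALDHdim 2 (0.00268). That of SREBP, LXR and ChREBP control was −0.01 without the filter. The members' median was −0.26 with limma-voom. The relations past the threshold numbered 2 to 5 when each library was omitted, 1 by Spearman's rho, 0 with group-centred values and 0 without ALDHbr 3 and ALDHbr 5. The cause was not tested.

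The groups share replicate numbers. Same-numbered libraries deviated together weakly (r = 0.0616 to 0.366, under 0.1 for 1 of 5 pairs), and 3 of 5 ALDHbr libraries correlated best with their own number. Some shared variation between same-numbered libraries is therefore possible. The main fit did not use pairs. With a replicate block, 0 genes and 0 members were called, the log2 fold change of Elovl6 was −0.99 and the Scd1 to Scd2 difference −0.01 (exact sign-exchange permutation p = 0.938). The block changed no direction and no call. By edgeR's test 727 of 10844 genes had an unadjusted p under 0.05 with the block, against 402 without it. Among the 8 members other than Elovl6, 0 had an unadjusted p under 0.05 with the block. The smallest was 0.0845, against 0.161 without it (edgeR). Depth limits the precision of Elovl6.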
